A study of Rattus norvegicus with 9 samples.

Results

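The nuclei that carried the macrophage label (Mac) in single-nucleus chromatin profiles of rat kidney were described. In snATAC-Seq a transposase tags accessible DNA in single barcoded nuclei. The authors gave each cluster of nuclei a cell type label from accessibility at marker genes. All nuclei with the label Mac were taken, which were 1455 of 53298 nuclei from 9 libraries (2.73%), and each was joined by barcode to its position on the deposited UMAP, a 2-dimensional map of the merged libraries. Mac was number 10 of 12 labels by nuclei. Gene and peak values were not analysed here, so the label could not be checked against Ptprc (the leukocyte antigen CD45), Csf1r (the receptor of macrophage growth factors), Cd74 (antigen presentation) or C1qa (complement), and it is used as the authors gave it.

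The libraries came from kidneys of male Sprague-Dawley rats. The labels give an age of 6 weeks, but the paper states no age and names 6 weeks as its main treatment period. Whether the label means age or time on treatment is not stated. Control rats were sham-operated. In DOCA rats 1 kidney was removed, and the mineralocorticoid deoxycorticosterone acetate was injected (50 mg/kg weekly) while the drinking water held salt. Finerenone (10 mg/kg/day), Spironolactone (50 mg/kg/day) and Amiloride (20 mg/kg/day) rats had the DOCA treatment and the drug. The methods of the paper do not list Amiloride among the groups with a kidney removed, while its results describe the removal for the whole model. Finerenone, which is not a steroid, and spironolactone, which is, antagonise the mineralocorticoid receptor, and amiloride blocks the epithelial sodium channel. Each group had 1 library of a kit for chromatin alone (scATAC) and 1 of a kit that also captures RNA (Multiome), except Amiloride with a single Multiome library. Surgery, salt and hormone differed together between Control and the other groups and cannot be told apart. The library codes of the DOCA pair share a stem, as do those of the Spironolactone pair, and whether the libraries of such a pair came from the same kidney is not stated, so the spread between libraries may be partly technical. Which time point of the study a library comes from is not given.

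Kidney macrophages sit in the interstitium between tubules and capillaries, where they clear debris, present antigen and exchange signals with fibroblasts and endothelium. They depend on CSF1R signalling, whose ligands CSF1 and IL-34 are made by tubule and stromal cells. After injury their number can grow by recruitment of blood monocytes and by local division, and they express the mineralocorticoid receptor themselves.

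The libraries differed in size and in composition before any treatment was considered. They held 1817 to 15235 nuclei and 19 to 693 Mac nuclei, and the smallest Mac numbers were those of the Control libraries (19 in scATAC and 31 in Multiome). Proximal tubule nuclei (labels PCT, PST and injured iPT) were 81.2% of nuclei in the scATAC library of Control but 41.3% in its Multiome library, so a share of all nuclei moves with them. The kit of a library was assigned from the barcodes it shares, those sharing more than 20 with the Amiloride library or its partners being taken as Multiome and the remainder as scATAC. Pairs within Multiome shared 53 to 244 barcodes (10 pairs), pairs within scATAC 5 to 13 (6 pairs) and pairs across kits 0 to 1 (20 pairs). A Mac barcode of 1 Multiome library recurred in another in 59 cases, never as Mac in both, and in the scATAC pairs in 4 cases, of which 1 barcode was Mac in both. No doublet caller was run.

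Macrophages were a larger part of the kidney outside the proximal tubule in both DOCA libraries than in any other library. Of non-proximal nuclei (the 9 labels other than PCT, PST and iPT), Mac took 11.6% (95% interval 9.57 to 13.9, exact Clopper-Pearson, which covers counting error only) in the DOCA scATAC library and 13.5% (12.6 to 14.4) in the DOCA Multiome library. In Control it took 4.11% (2.49 to 6.35) and 1.04% (0.705 to 1.47). The kit with which a library was made thus went with a wide gap within Control, while the DOCA pair lay close together.

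All drug libraries lay below both DOCA libraries, and those of Amiloride and Finerenone Multiome lay within the range of Control. Mac took 6.40% (4.55 to 8.72) and 2.29% (1.78 to 2.91) of non-proximal nuclei in the Finerenone scATAC and Multiome libraries. The Spironolactone libraries had 5.80% (4.14 to 7.88) and 6.55% (5.95 to 7.20). The only Amiloride library had 1.48% (1.13 to 1.89), next to the Control Multiome library. The Finerenone range overlapped the Control range, the Spironolactone range lay above it, and no drug library reached a DOCA library.

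**Figure D1:**
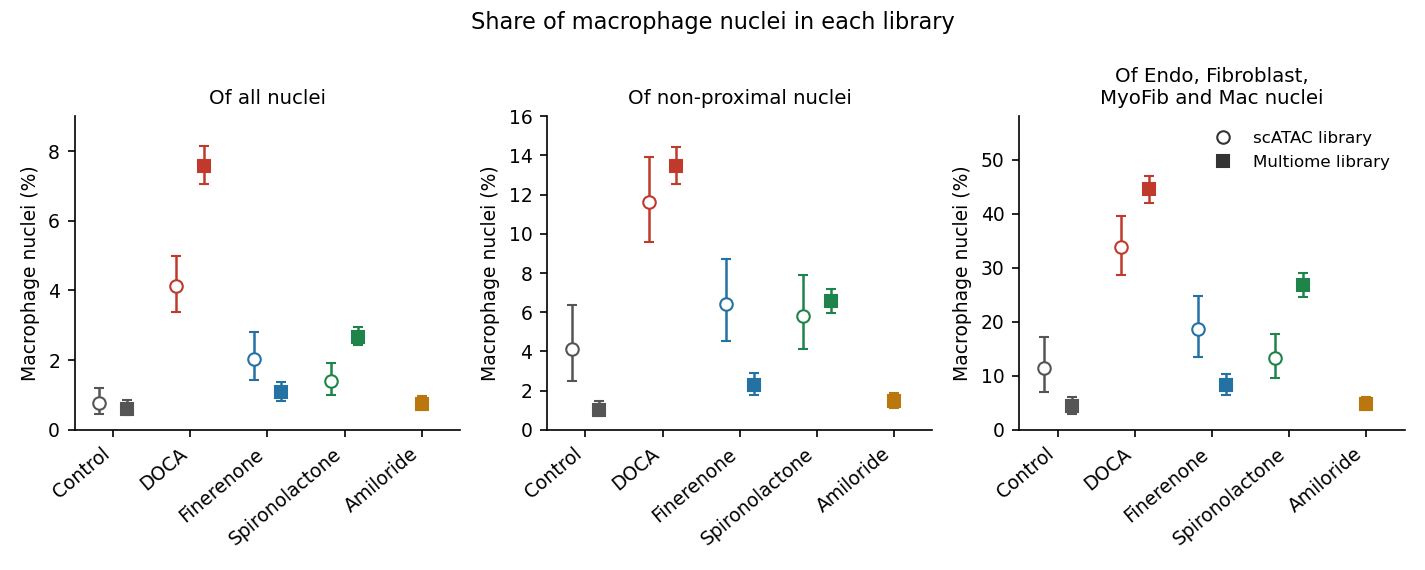
Percentage of macrophage nuclei in each library (points, circles for scATAC and squares for Multiome libraries; bars are exact 95% intervals for counting error) by treatment group, of all nuclei, of non-proximal nuclei, and of Endo, Fibroblast, MyoFib and Mac nuclei. Both DOCA libraries stand above all others on each denominator, at 11.6% and 13.5% of non-proximal nuclei.

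The comparison of DOCA with Control asked whether macrophage frequency changed with the disease model. The mean share of non-proximal nuclei was 12.5% ± 1.32 (SD, n = 2) for DOCA, against 2.57% ± 2.18 (SD, n = 2) for Control, which was 2.82-fold higher within the scATAC kit and 13.0-fold higher within the Multiome kit. On the log2 odds scale (share over remainder), the limma fit with terms for group and kit gave a rise of 2.73 (SE 0.45, adjusted p = 1.41e-05, Benjamini-Hochberg over 9 labels). In that contrast 44.4% of the labels passed, so a call by itself does not set Mac apart. With each library of the contrast left out, the change was 1.90 leaving out Control Multiome, 3.56 leaving out Control scATAC, 2.04 leaving out DOCA Multiome and 3.42 leaving out DOCA scATAC. Such a fit leaves a group with 1 library, which limma takes to vary like the other groups and labels, so a p from it, here and below, carries no replicate check of that group.

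That call rests on a spread borrowed from other labels. The limma spread shared by the 9 labels was 0.45 on the log2 scale, whereas the residual SD of Mac by itself was 0.83 with 3 degrees of freedom. With each label's own spread, an alternative chosen after the data were seen, the rise of 2.73 had an adjusted p of 0.0833 in the limma fit without variance sharing. Of 40 results on Mac shares and on its ratios to Fibroblast and Endo over 8 contrasts, limma called 14 with the shared spread and 0 with the own spread, where 3 had an unadjusted p under 0.05 against 20 with the shared spread. Every call below has this limit.

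The exact permutation of group labels within kits over all 5 groups, which borrows nothing, gave p = 0.133 for the share of non-proximal nuclei (adjusted p = 0.229 over 8 Mac measures), with 0.00833 as the smallest p that the 120 distinct regroupings allow. The same exact permutation test gave p = 0.125 for the share of all nuclei, 0.192 for the share of the stromal, endothelial and macrophage nuclei, 0.325 for the ratio to Fibroblast and 0.200 for the ratio to Endo. None passed the threshold.

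Within the compartment of endothelium (Endo), fibroblasts, myofibroblasts (MyoFib) and macrophages, the order of the cell types differed in DOCA. Mac was the most frequent of these 4 labels in the DOCA Multiome library with 693 of 1556 nuclei, or 44.5% (42.0 to 47.0), and ranked second to fibroblasts in the DOCA scATAC library with 102 of 301 or 33.9% (28.6 to 39.5). In all 7 other libraries Mac held rank 3 (in the Control Multiome library level with MyoFib at 31 nuclei each).

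The Mac share of this compartment was 11.4% (scATAC) and 4.34% (Multiome) for Control. In the same order it was 18.7% and 8.22% for Finerenone, 13.2% and 26.8% for Spironolactone and 4.74% in the Amiloride library. The DOCA libraries therefore did not overlap any other group, and the Finerenone and Spironolactone libraries overlapped each other. The DOCA rise over Control was 3.05 in log2 odds (SE 0.83, adjusted p = 0.0315 by limma, where 75% of the 4 labels passed). The other labels called were Endo (-1.69) and MyoFib (-1.47), while Fibroblast did not pass (-0.14, adjusted p = 0.683 by limma), and shares of 1 total are not independent of each other. This call was lost on leaving out Control Multiome (2.20, adjusted p = 0.131), DOCA scATAC (3.64, adjusted p = 0.0753) or DOCA Multiome (2.45, adjusted p = 0.158), all by limma.

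Ratios to single labels do not depend on the rest of a library. There were 147.8 Mac nuclei per 100 endothelial nuclei in the DOCA scATAC library and 160.0 in the DOCA Multiome library, and macrophages outnumbered endothelium only in these libraries. Control had 23.8 and 7.67, Finerenone 77.1 and 15.7, Spironolactone 30.9 and 66.2, and Amiloride 6.04. Both DOCA libraries stood above every other library, and the Finerenone and Spironolactone libraries overlapped each other.

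Against fibroblasts, the matrix-producing cells with which macrophages share the interstitium, the DOCA libraries had 81.6 and 171.5 Mac nuclei per 100. Control had 31.7 and 12.4, Finerenone 35.6 and 23.2, Spironolactone 33.0 and 89.8, and Amiloride 37.8. Here the Spironolactone Multiome library reached above the DOCA scATAC library, so the groups overlapped across kits but not within a kit. MyoFib, the contractile matrix-producing cells of scarring tissue, were rare with 5 to 56 nuclei per library, and the ratio of Mac to MyoFib has wide counting intervals, at 2040 (846 to 6417) and 2665 (1803 to 4110) per 100 in DOCA against 237.5 (99.3 to 627) and 100 (58.8 to 170) in Control.

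**Figure D2:**
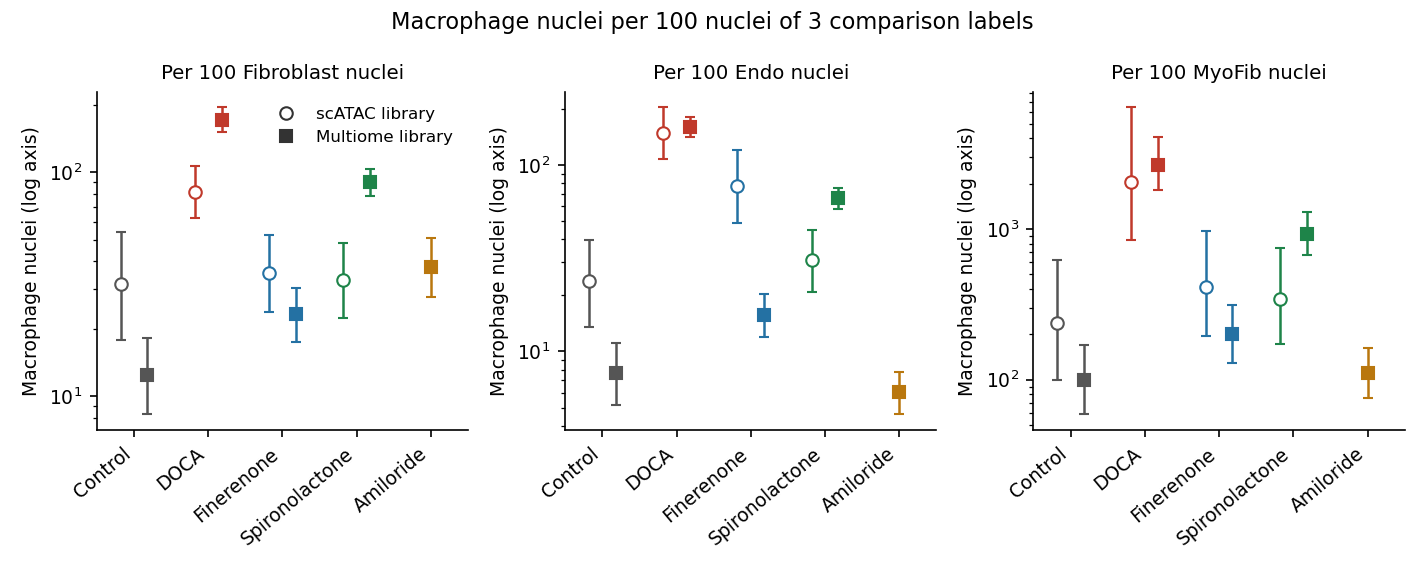
Macrophage nuclei per 100 Fibroblast, Endo and MyoFib nuclei in each library (log axes; circles scATAC, squares Multiome; bars are exact 95% intervals for counting error) by treatment group. DOCA is highest within each kit for all 3 labels, with 147.8 and 160.0 macrophages per 100 Endo nuclei.

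By limma over all 66 pairwise ratios of labels, DOCA against Control raised the ratio of Mac to Endo by 3.48 on the log2 scale (SE 0.73, adjusted p = 0.000238), to MyoFib by 3.87 (SE 0.70, adjusted p = 4.31e-05) and to Fibroblast by 2.55 (SE 0.71, adjusted p = 0.00362). A ratio moves with both of its labels. Among non-proximal nuclei MyoFib was itself lower in DOCA (-1.30, adjusted p = 0.0165), while Endo (-1.03, adjusted p = 0.0545) and Fibroblast (0.03, adjusted p = 0.951) did not pass by limma. The ratio to Fibroblast lost the call without the Control Multiome library (1.56, adjusted p = 0.0767 by limma) and without the DOCA Multiome library (1.93, adjusted p = 0.177 by limma). Of the 11 ratios that contain Mac, 10 rose and 1 did not pass, while 45.5% of all 66 ratios passed in 1 direction or the other. Here and below, the 11 share the same Mac counts and are part of the 66, so they are not separate observations. The median change of the 11 was 3.40. With own spreads 0 of the 11 passed in limma, 5 having an unadjusted p under 0.05 against 10 with the shared spread.

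The ratio that did not pass was that to injured proximal tubule, iPT, the label of proximal cells that have lost their mature profile. Its change was 0.84 (SE 0.72, adjusted p = 0.329 by limma, interval -0.62 to 2.30). The label iPT was itself higher in DOCA, with a change of 2.39 in log2 odds of all nuclei (adjusted p = 0.000892 by limma). The ratio changed by -0.70 within the scATAC kit and by 2.39 within the Multiome kit. Mac per 100 iPT nuclei was 33.3 in the Control scATAC library, above the 20.7 of its DOCA counterpart, and 7.47 in the Control Multiome library, below the 39.8 of its DOCA counterpart. The Control scATAC value rests on 19 Mac and 57 iPT nuclei. For the other 10 labels the ratio was highest in DOCA in both kits, and the changes ranged from 1.88 against principal cells (PC) to 5.12 against podocytes (Podo), the filter cells of the glomerulus. Podocytes themselves were lower in DOCA, with a change of -2.63 in log2 odds of non-proximal nuclei (adjusted p = 1.41e-05 by limma) and -2.15 of all nuclei (adjusted p = 0.0021 by limma).

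**Figure D3:**
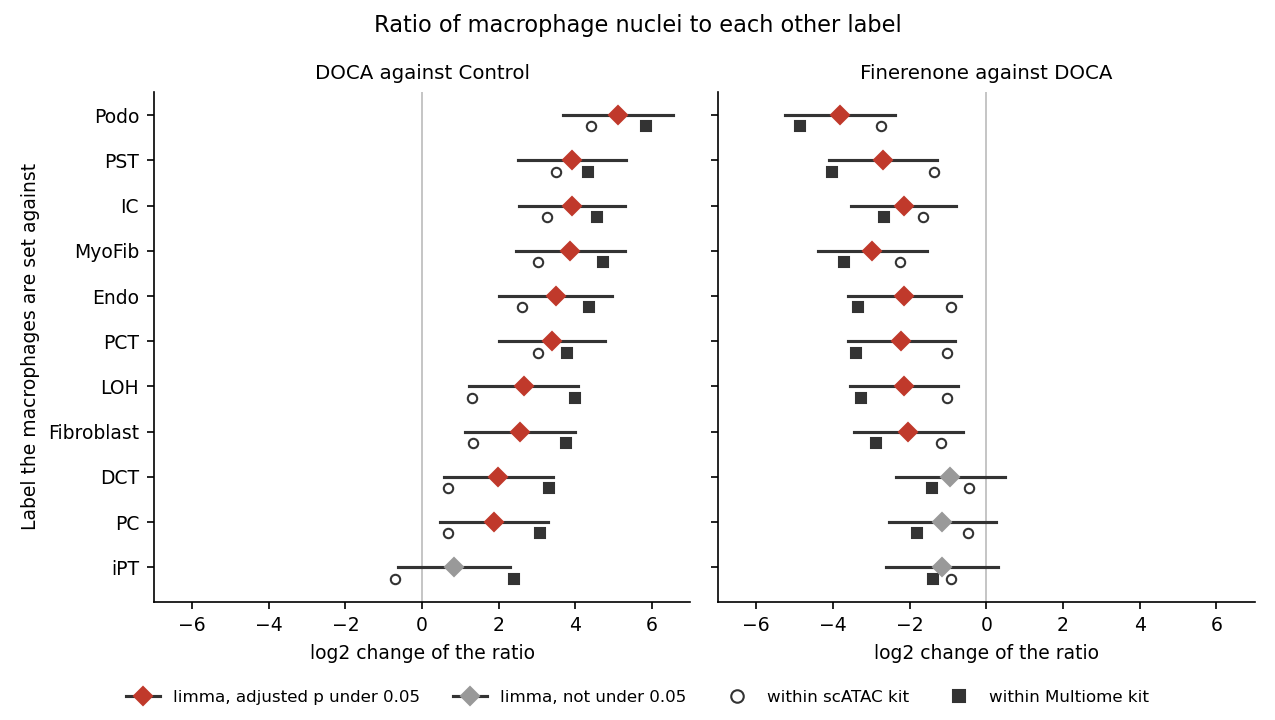
Log2 change of the ratio of macrophage nuclei to each of 11 other labels, for DOCA against Control and Finerenone against DOCA (diamonds with 95% intervals from limma, red where adjusted p is under 0.05; circles and squares are the changes within the scATAC and Multiome kits). In DOCA the ratio to iPT (0.84) is the only one whose interval crosses 0, and all 11 ratios are lower in Finerenone than in DOCA, 8 of them past the threshold.

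The drug groups were set against DOCA to ask whether treatment altered macrophage frequency. These comparisons all use the same DOCA libraries. The Mac share of non-proximal nuclei in Finerenone was below that in DOCA by 1.81-fold within the scATAC kit and 5.88-fold within the Multiome kit. In the limma model it fell by 1.83 in log2 odds (SE 0.45, adjusted p = 0.0017), with 33.3% of 9 labels past the threshold. Leaving out DOCA Multiome gave -1.14 (adjusted p = 0.308) and leaving out Finerenone Multiome gave -1.32 (adjusted p = 0.182), both by limma.

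In the 4-label compartment the Finerenone change was -2.15 (SE 0.83, adjusted p = 0.108 by limma), while 25% of the labels passed. It passed without the Finerenone scATAC library, at -2.90 by limma. It was -1.40 without Finerenone Multiome, -1.56 without DOCA Multiome and -2.74 without DOCA scATAC, none of which passed. The ratio to Endo fell by 2.14 (SE 0.73, adjusted p = 0.0343), to Fibroblast by 2.03 (SE 0.71, adjusted p = 0.0374) and to MyoFib by 2.98 (SE 0.70, adjusted p = 0.00397) in the limma fit. MyoFib was itself higher in Finerenone than in DOCA among non-proximal nuclei (1.29, adjusted p = 0.0232 by limma). Of the 11 ratios 8 fell and 3 did not pass, against 19.7% of all 66. The call against Endo was lost without either DOCA library or the Finerenone Multiome library (-2.67, -1.60 and -1.06), and that against Fibroblast without any single DOCA or Finerenone library (between -2.66 and -1.41). Both calls were also lost when the Mac nuclei at the edge of the label, defined with the UMAP results, were left out (-2.06 and -1.95, adjusted p = 0.0584 for both by limma).

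In Spironolactone the share of non-proximal nuclei was below DOCA by 2.00-fold within the scATAC kit and 2.06-fold within the Multiome kit. The kits differed more on the other measures, at 2.56-fold and 1.66-fold for the compartment, 4.78-fold and 2.42-fold for the ratio to Endo and 2.47-fold and 1.91-fold for that to Fibroblast. The change of the non-proximal share was -1.12 in log2 odds (SE 0.45, interval -2.04 to -0.19, adjusted p = 0.152 by limma) with 0% of the labels past the threshold and 2 of 9 at an unadjusted p under 0.05. Without the Spironolactone Multiome library it was -1.76 and passed (adjusted p = 0.0494 by limma), and it was -0.43 without DOCA Multiome, -0.47 without Spironolactone scATAC and -1.81 without DOCA scATAC. The change was -1.43 in the compartment (SE 0.83, adjusted p = 0.202, 25% of labels called), -1.76 against Endo (SE 0.73, adjusted p = 0.127) and -1.11 against Fibroblast (SE 0.71, adjusted p = 0.303) by limma. Leaving out Spironolactone scATAC brought the compartment change to -0.44 and the Fibroblast change to -0.25, and leaving out Spironolactone Multiome brought them to -2.43 and -1.98. None of the 11 Mac ratios passed in limma, nor any of the 66 (0%, 18 with an unadjusted p under 0.05). All 11, which share the same Mac counts, were below 0. Without either Control library, which enter only through the shared spread, the ratio to Endo passed in limma at the same -1.76. Leaving out 1 library moved this change over -2.94 to -0.58.

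Amiloride had 1 library, which limma takes to vary like the other groups. The share of non-proximal nuclei was 9.13-fold below that of the DOCA Multiome library, which is -3.37 in log2 odds. Fitted against both DOCA libraries with the kit term, the change was -2.85 (SE 0.57, adjusted p = 0.0003 by limma, 44.4% of labels called). With the own spread of Mac the adjusted p was 0.125 in limma, and neither value rests on replicates of Amiloride. It was -1.99 without the DOCA Multiome library (adjusted p = 0.102 by limma). In the compartment it fell by 3.56 (SE 1.06, adjusted p = 0.0237 by limma), where 100% of the labels passed, and there too the call was lost without the DOCA Multiome library (-2.81, adjusted p = 0.127 by limma). The ratio to Endo fell by 4.32 (SE 0.92, adjusted p = 0.000945), but that library held 1027 Endo nuclei, 78.5% of its compartment and the largest such share of any library. Endo was itself higher there than in DOCA among non-proximal nuclei (1.93, adjusted p = 0.00888 by limma). Against Fibroblast the change was -1.71 (SE 0.90, adjusted p = 0.133 by limma). It passed without either Control library (-1.95 by limma), while leaving out 1 library moved it over -2.17 to -0.92. Of the 11 ratios 7 fell, against 42.4% of all 66 called.

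**Figure D4:**
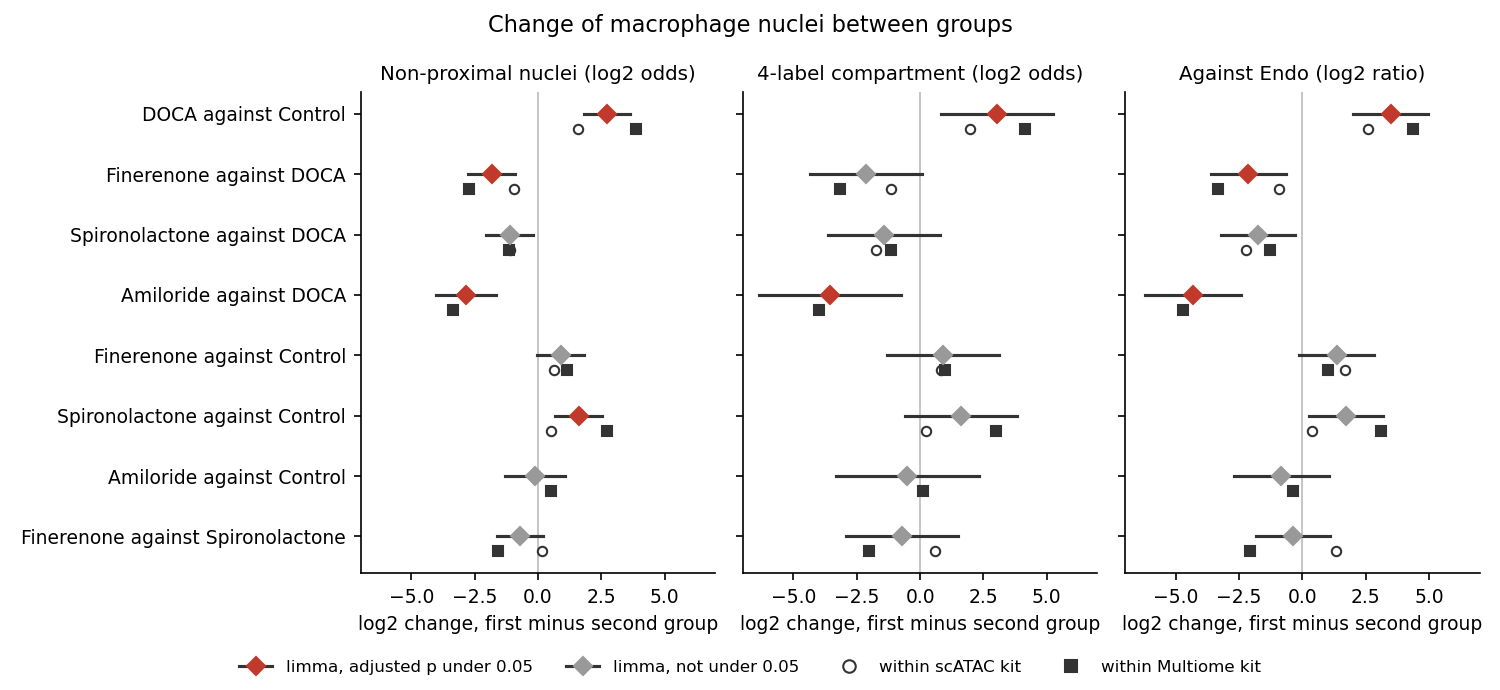
Log2 change of the macrophage share of non-proximal nuclei, of its share of the 4-label compartment and of its ratio to Endo for 8 contrasts (diamonds with 95% intervals from limma, red where adjusted p is under 0.05; circles and squares are the changes within the scATAC and Multiome kits). DOCA lies above Control in both kits (1.59 and 3.87 for the first measure), and Finerenone and Spironolactone lie below DOCA in both kits on all 3.

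The drug groups were also set against Control, with the same Control libraries in each comparison. Finerenone had 1.56-fold and 2.21-fold the Control share of non-proximal nuclei within the scATAC and Multiome kits, a change of 0.90 (SE 0.45, interval -0.02 to 1.83, adjusted p = 0.247 by limma). It ran from 0.07 leaving out Control Multiome to 1.74 leaving out Control scATAC, with 0.40 leaving out Finerenone scATAC and 1.41 leaving out Finerenone Multiome. No Mac measure of this contrast passed in limma, with 0% of labels of non-proximal nuclei, 0% of the compartment labels and 0% of the 66 ratios called (1, 0 and 6 with an unadjusted p under 0.05).

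Spironolactone had 1.41-fold and 6.32-fold the Control share within the kits, and limma called the rise of 1.61 (SE 0.45, adjusted p = 0.00591, 22.2% of labels called). Its size differed between kits (0.50 and 2.72), and without the Control Multiome or the Spironolactone Multiome library it was 0.78 (adjusted p = 0.477) and 0.97 (adjusted p = 0.451) by limma. The call was also lost without either DOCA library, at the same 1.61 (adjusted p = 0.0852 by limma). In the compartment the change was 1.61 (SE 0.83, adjusted p = 0.232 by limma, 0% of labels called and 0 at an unadjusted p under 0.05). It was 0.62 without Spironolactone Multiome, 0.77 without Control Multiome, 2.46 without Control scATAC and 2.61 without Spironolactone scATAC. Of the 11 ratios 2 rose, against 18.2% of all 66, and those to Endo (1.73, adjusted p = 0.108) and Fibroblast (1.44, adjusted p = 0.177) did not pass in limma. Without the Control scATAC library both passed (2.36 and 2.43, adjusted p = 0.0159 for both by limma), and that to Endo also passed without the Spironolactone scATAC library (2.90, adjusted p = 0.0205 by limma).

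The Amiloride library had 1.42-fold the share of the Control Multiome library, and its fitted change was -0.12 (SE 0.57, interval -1.30 to 1.06 by limma). Its direction turned on 1 library. The change was 0.51 leaving out Control scATAC, -1.16 leaving out Control Multiome and 0.05 leaving out either DOCA library. No Mac measure passed, while 11.1% of labels of non-proximal nuclei, 0% of the compartment labels (1 of 4 at an unadjusted p under 0.05) and 6.06% of the ratios were called.

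Finerenone and Spironolactone, given at different doses, had Mac shares of non-proximal nuclei of 6.40% and 5.80% in the scATAC kit and of 2.29% and 6.55% in the Multiome kit. The order of the drugs thus turned with the kit. The change of Finerenone against Spironolactone was -0.71 (SE 0.45, interval -1.63 to 0.21, adjusted p = 0.537 by limma, 11.1% of labels called), and -0.72 in the compartment (SE 0.83, interval -2.93 to 1.49, adjusted p = 0.575 by limma, 0% of labels called and 0 at an unadjusted p under 0.05). The ratio changed by -0.38 against Endo (interval -1.85 to 1.09) and by -0.92 against Fibroblast (interval -2.35 to 0.51). The compartment change turned to 0.03 leaving out Finerenone Multiome and to 0.28 leaving out Spironolactone Multiome. Leaving out 1 library moved the Endo change over -1.56 to 0.80. The non-proximal change was -0.06 and the Fibroblast change -0.05 leaving out Spironolactone Multiome, and they were -1.36 and -1.78 leaving out Spironolactone scATAC. Of the 11 ratios 1 fell, that to podocytes, named after its value was seen (-2.67, SE 0.71, adjusted p = 0.0126 by limma), against 10.6% of all 66. Podocytes themselves were higher in Finerenone by 2.04 in log2 odds of non-proximal nuclei (adjusted p = 0.000953 by limma), beside the -0.71 of Mac.

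Of all nuclei, Mac took 0.774% and 0.608% in Control, 4.13% and 7.58% in DOCA, 2.04% and 1.08% in Finerenone, 1.40% and 2.67% in Spironolactone and 0.753% in Amiloride, and serves here as the base for the denominators above. In limma with the shared spread this share passed for DOCA against Control (25% of 12 labels called), Finerenone against DOCA (16.7%) and the single Amiloride library against DOCA (33.3%), and with the own spread none of the 3 did (adjusted p = 0.115, 0.311 and 0.177). It did not pass for Spironolactone against DOCA (0%), Finerenone, Spironolactone or Amiloride against Control (0%, 8.33% and 8.33%), or Finerenone against Spironolactone (8.33%). The fall in Finerenone was lost without either DOCA library (-2.49 and -1.45) or the Finerenone Multiome library (-1.25), and that in Amiloride without the DOCA Multiome library (-2.38). Spironolactone passed against DOCA without either Control library (-1.59, adjusted p = 0.0147 by limma), and against Control without the Control scATAC library (1.83) or either Finerenone library (1.49, just under the threshold). Of the 3 denominators, Spironolactone against Control passed on non-proximal nuclei alone. The kit term of Mac was 0.14 (SE 0.40) of all nuclei and -0.80 (SE 0.32, adjusted p = 0.0687 by limma) of non-proximal nuclei, where the Multiome libraries of Control and Finerenone were lower and those of DOCA and Spironolactone were not.

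Macrophage nuclei formed a compact field on the UMAP. Linked over distances of less than 3 times the median reach of the 15 nearest neighbours, 1372 of the 1455 nuclei (94.3%) fell into a single connected group, and 41 of the 53 groups were lone nuclei. On average 90.4% of the 15 nearest neighbours of a Mac nucleus carried the label Mac, and for 776 nuclei (53.3%) all did. Among 12 labels this share ranked number 7, so Mac was neither the best nor the worst separated label. The most frequent other neighbours were PST (2.19%) and PCT (1.78%), the proximal tubule labels, while Endo gave 0.880% and Fibroblast 0.165%. Neighbour shares were not scaled by how frequent the labels are. PST made up 18.4% of all nuclei and PCT 26.8%, against 6.04% for Endo and 3.67% for Fibroblast. The label and the map come from the same data, so these values describe the label and do not test it. The results of the paper name 9 samples and 53298 nuclei, as used here, while its supplement names more merged sets. Whether libraries other than those described here shaped the map is therefore not settled.

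A second group of 14 Mac nuclei lay apart, at a median position of -3.73 and 4.37, where 61.0% of the neighbours were endothelial and 31.9% Mac. It held 13 nuclei of the DOCA Multiome library and 1 of the DOCA scATAC library. Nuclei whose neighbours were less than 50% Mac numbered 79 (5.43%). They made up 0 of 62 in the Amiloride library and 0 of 66 in the Finerenone Multiome library, where 3 counts would be 4.84% and 4.55% and the exact upper limits are 5.78% and 5.44%, and 18.4% (exact interval 7.74 to 34.3) in the Spironolactone scATAC library, where this rests on 7 of 38 nuclei.

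The placement of macrophages within their field was compared across treatments. The library medians ranged over 0.516 units on the first axis and 0.426 on the second, against a median distance of 0.245 to 0.547 of the nuclei from their own library's centre. On the second axis the DOCA libraries had the highest median in each kit, 1.78 in scATAC and 1.74 in Multiome, against 1.36 and 1.45 in Control. The medians of Finerenone were 1.70 and 1.41, those of Spironolactone 1.49 and 1.35, and that of Amiloride was 1.53. On the first axis Amiloride was highest of the Multiome libraries at 3.28 and DOCA lowest at 2.76, but the DOCA scATAC library at 2.96 was second highest of its kit.

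Those shifts did not pass the test. The exact permutation of group labels within kits gave p = 0.117 for the medians on both axes together, 0.150 for the spread around the centre and 0.0833 for the share of Mac neighbours (adjusted p = 0.229 for each over 8 Mac measures). Unadjusted, the exact permutation p of the spread fell below 0.05 without the DOCA scATAC library. That of the neighbour share did so without the Spironolactone Multiome library or the Amiloride library (exact permutation p = 0.0417 for the latter). No adjusted p was computed for these subsets. Compared in the same way, placement reached an unadjusted exact permutation p under 0.05 for 2 of 12 labels, of which Mac was not 1, and for 0 after adjustment, and the statistic of Mac ranked number 4. With 120 regroupings a label that passed alone could not have an adjusted p below 0.1 over 12 labels, nor a Mac measure one below 0.0667 over 8 measures, so these adjusted values could hardly have passed.

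**Figure D5:**
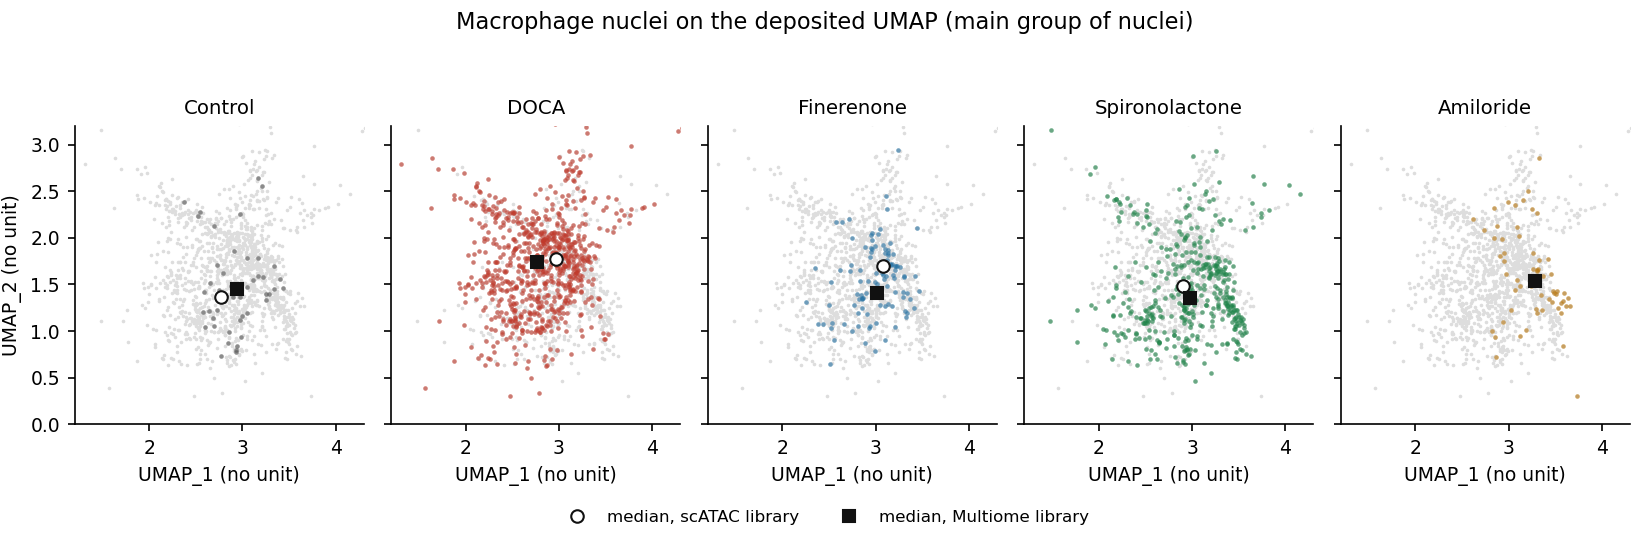
Deposited UMAP positions (no unit) of macrophage nuclei by treatment group (colour) over all macrophage nuclei (grey), with the median of each library (open circle scATAC, black square Multiome). The window holds 1378 of the 1455 nuclei; the DOCA medians lie highest on the second axis in each kit, at 1.78 and 1.74, and the groups overlap widely.

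Among Mac neighbours, the mix of treatments was compared with the mix over all Mac nuclei, as a description. DOCA nuclei made up 54.6% of all Mac nuclei. Of the Mac neighbours of Mac nuclei, 63.9% were DOCA nuclei around those of the DOCA Multiome library but 52.2% around those of the DOCA scATAC library. Around the nuclei of the other libraries they were between 37.6% (Amiloride) and 56.6% (Finerenone scATAC). Amiloride nuclei had 15.2% of Mac neighbours from their own library against 4.20% of the other Mac nuclei, which was 3.61 times as many, and neighbours of the own library were also over-represented in the other 8 libraries, between 1.22 times (DOCA Multiome) and 2.62 times (Finerenone scATAC). Counted by treatment, over both kits, the factor was between 0.729 and 1.60 in those 8 libraries. The single Amiloride library leaves treatment and library confounded there, and they cannot be told apart.

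The macrophage to endothelium ratio was set against tubular injury across libraries, taken as the iPT share of proximal tubule nuclei, which was lowest in the Control scATAC library (2.86%) and highest in the DOCA Multiome library (43.5%). On log2 scales Pearson's r was 0.61 (exact permutation p = 0.0800) and Spearman's rho 0.73 (exact permutation p = 0.0311) over 9 libraries. Leaving out either DOCA library or Finerenone scATAC gave a rho of 0.62 (exact permutation p = 0.115 for each), and p was 0.0576 without Spironolactone Multiome and 0.0694 without Amiloride by the same exact permutation. With kit means removed and permutation within kits, r was 0.72 (exact permutation p = 0.0170) and rho 0.63 (exact permutation p = 0.0847). Without the libraries farthest from the median iPT share, those of Control scATAC and DOCA Multiome, r was 0.66 (n = 7, exact permutation p = 0.112). This is 1 relation, given without adjustment. Libraries of the same treatment are not spread independently over both measures, and the relation was not tested within treatments.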

How the data were processed

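snATAC-Seq libraries of rat kidney were prepared by the authors with 2 kits, aligned to rn6 with Cell Ranger ATAC 1.1.0, filtered on fragments in peaks, reads in peaks, nucleosome signal and transcription start site enrichment, merged in Signac 1.3.0, corrected with Harmony and clustered. Those filters act before deposit, and a loss of nuclei that differed between cell types is part of every share. The deposited metadata hold names (library code, treatment, cell type) and no measurement. The deposited UMAP coordinates are a score without unit, made over the merged data. The supplementary methods name more sets than the libraries used here, while the results of the paper name the same numbers of samples and nuclei. Whether others entered the batch correction is unclear. Groups came from the treatment recorded with each library code. The kit of a library came from its barcode list, anchored on the single Amiloride sample. It gave 5 Multiome libraries, the number of samples that the supplement names for this kit. The kit of a single library could not be checked otherwise.

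Nuclei were counted per library and label (Python 3.11.15, pandas 2.3.3). Shares are log2 of (count + 0.5)/(rest + 0.5) and ratios log2 of (Mac + 0.5)/(label + 0.5), fitted with limma 3.58.1 in R 4.3.3 to the 9 libraries with terms for group and kit, and adjusted by Benjamini-Hochberg over all labels or ratios, at a threshold of 0.05. Libraries, not nuclei, were replicates. Permutations kept labels within kits (2880 assignments). UMAP neighbours came from scikit-learn 1.9.0 (15 per nucleus, 30 as an alternative). The limma and permutation steps were tested on simulated data, for limma with the same spread in all labels, which Mac exceeded. The Mac label is named in every contrast, with Fibroblast, MyoFib, Endo and iPT as comparators. The members, measures and lists were chosen with earlier results of these data known. Alternatives were no kit term, 1 added to counts, another variance prior, no edge nuclei, other UMAP summaries, each library left out and, added after the data were seen, each label's own spread. Peak and gene values and other tissues were not analysed here.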

Additional observations from a re-analysis of the deposited data

How the results depend on the processing

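Directions were kept for the 3 Mac shares and the ratios to Endo and Fibroblast, in the alternatives that keep all 9 libraries, and the other Mac ratios were run only with their own spread. With each label's own spread in limma the values are the same and all calls were lost: 3.08, -1.97 and -3.03 (share of all nuclei, DOCA against Control, Finerenone and Amiloride against DOCA), 2.73, -1.83, -2.85 and 1.61 (non-proximal, the same with Spironolactone against Control), 3.05 and -3.56 (compartment, DOCA against Control, Amiloride against DOCA), 3.48, -2.14 and -4.32 (ratio to Endo) and 2.55 and -2.03 (ratio to Fibroblast). Without a kit term the calls of -1.97, -1.83, 1.61, -2.14 and -2.03 were lost and -2.15 (compartment, Finerenone against DOCA) passed. A trended and robust prior lost -1.97. Without edge nuclei the Finerenone ratios fell short at -2.06 and -1.95. For Mac neighbours the permutation p was 0.0167 without a kit term, and the iPT relation was r = 0.72 within kits. The cause was not tested.

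Leaving out each library moved the log2 change of the share of all nuclei over -2.69 to -1.25 (Finerenone against DOCA), -2.12 to -1.05 (Spironolactone against DOCA), -3.42 to -2.38 (Amiloride against DOCA), 0.96 to 2.03 (Spironolactone against Control), -0.37 to 0.30 (Amiloride against Control) and -1.11 to 0.33 (Finerenone against Spironolactone). For non-proximal nuclei the ranges in the same order were -2.52 to -1.14, -1.81 to -0.43, -3.37 to -1.99, 0.78 to 2.45, -1.16 to 0.51 and -1.36 to -0.06, with 0.07 to 1.74 for Finerenone against Control. For the compartment they were 2.20 to 3.89 (DOCA against Control), -2.90 to -1.40, -4.00 to -2.81 (Finerenone and Amiloride against DOCA), -2.43 to -0.44 (Spironolactone against DOCA), 0.62 to 2.61 (Spironolactone against Control), 0.05 to 1.74 (Finerenone against Control), -1.57 to 0.12 (Amiloride against Control) and -1.71 to 0.28 (Finerenone against Spironolactone). For Fibroblast they were 1.56 to 3.54, -2.66 to -1.41, -2.17 to -0.92 (DOCA against Control, Finerenone and Amiloride against DOCA), and -0.47 to 1.51, 0.45 to 2.43 and -0.39 to 1.59 (Finerenone, Spironolactone and Amiloride against Control), with -1.98 to -0.25 for Spironolactone against DOCA and -1.78 to -0.05 for Finerenone against Spironolactone. For Endo they were -3.21 to -1.06, -2.94 to -0.58 (Finerenone and Spironolactone against DOCA), 0.55 to 2.90 (Spironolactone against Control) and -1.56 to 0.80 (Finerenone against Spironolactone). The exact permutation p of UMAP spread ran from 0.0167 to 0.333 and of Mac neighbours from 0.0208 to 0.406, and r of the iPT relation from 0.47 to 0.75. Where a left-out library turned a direction (17 cases), the contrast had not passed. In the groups with both kits the replicate numbers follow the kit, and they name no pairs of animals. Libraries were thus blocked only by the kit term and by permutation within kits. Counts of 19 and 31 Mac nuclei limit Control.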
